A study of Homo sapiens with 18 samples.

Results

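The 7 genes FABP3, IL36B, PPP1R3A, PKD2L1, C1orf228, MYOC and GRIA1 stood out, among 23368 gene rows, for large increases of their RNA upon treatment of SJSA-1 cells with Palbociclib (PD0332991). They had been picked from the measured comparisons of Palbociclib with DMSO and of Palbociclib plus Nutlin with Nutlin. Their differences in those 4 comparisons are therefore described without a test. The 18 libraries sequenced, 3 for each of 6 conditions, had been prepared from total RNA. SJSA-1 is an established human osteosarcoma line with amplified MDM2 and CDK4, so every value comes from a single line. DMSO is the solvent control. The Nutlin libraries came from cells exposed for 6 h to 20 µM Nutlin, which keeps MDM2 from binding p53. PD30 stands for 10 µM of the CDK4/6 inhibitor PD0332991 for 30 h. PD24 stands for the same drug for 24 h, after which it was taken away until the end of the 30 h. N+PD30 and N+PD24 combine these schedules with Nutlin during the last 6 h.

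CDK4 and CDK6 phosphorylate the retinoblastoma protein. When they are blocked, E2F-driven genes are shut off and the cells stop before S phase. The 7 genes belong to different families and none of them is a classical cell cycle gene. FABP3 carries fatty acids within heart and muscle cells. PPP1R3A anchors protein phosphatase 1 to glycogen in skeletal muscle. MYOC encodes myocilin, a secreted glycoprotein with an olfactomedin domain, best known from the trabecular meshwork of the eye. IL36B encodes a cytokine of the interleukin-1 family that is typical of epithelia. GRIA1 encodes a subunit of AMPA-type glutamate receptors. PKD2L1 encodes a cation channel of the polycystin family that is found in acid-sensing cells. C1orf228, now named ARMH1, encodes a little-studied protein with armadillo-like repeats.

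Total counts per library ranged from 12704845 (N+PD30 replicate 1) to 40231041 (PD24 replicate 3), with a median of 29608936, so that 1 read was worth between 0.0249 and 0.0787 CPM, the count scaled to a library total of 1000000. All 10 genes of a proliferation list were lower in each of the 4 Palbociclib comparisons, and all 10 genes of a p53 target list were higher with Nutlin than with DMSO (edgeR or limma, Benjamini-Hochberg adjusted p under 0.05). The osteoblast regulator RUNX2 was read at 18.2 to 34.5 CPM, and MDM2 at 1151 CPM or more in every library, whereas the mature osteoblast genes SP7, BGLAP and IBSP did not exceed 0.244 CPM. The T cell gene CD3E, the endothelial gene CDH5 and the epithelial gene EPCAM did not exceed 0.0541, 0.123 and 0.852 CPM. Other genes of these marker lists were read, the epithelial KRT18 at 79.8 to 251 CPM and KRT8 at 9.47 to 36.9. CD68 of the blood cell list lay at 13.6 to 36.4 CPM. Of the endothelial list, VWF lay at 1.27 to 13.5 CPM and KDR reached 4.04. In bulk RNA, more cells that express a gene and more RNA per cell cannot be told apart. The study describes the replicates of each condition as biological, without stating how the cultures were separated, and p-values measure the spread between these samples.

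The choice did not hold alike for all 7 genes. FABP3, MYOC, IL36B and C1orf228 were higher in every Palbociclib library than in every library of the matched condition without it, with both schedules and with or without Nutlin. GRIA1 shared this pattern except in N+PD30, where its lowest library fell within the Nutlin range. PKD2L1 was higher in all PD30 libraries than in DMSO, but it was also read in all Nutlin libraries, and Palbociclib on top of Nutlin left it overlapping with the Nutlin range. PPP1R3A was read in N+PD24 and hardly anywhere else. For C1orf228 the separation rested on few reads. N+PD24 replicate 1 held 3 reads, as did Nutlin replicates 2 and 3, so library depth set their order. PD24 replicate 2 held 2 reads against 1 in DMSO replicates 2 and 3. In numbers, 6 of the 7 genes were higher in every PD30 than in every DMSO library, compared with 28.5% of the 15125 genes tested. For PD24 against DMSO these were 5 of 7 (22.6% of the 15094 genes tested), for N+PD30 against Nutlin 4 of 7 (29.7% of 15721) and for N+PD24 against Nutlin 6 of 7 (18.7% of 17946). The shares are over genes that passed the filter on low values, which 5, 4, 6 and 7 of the 7 genes did, in this order of comparisons. Since the genes were chosen in these comparisons, the counts describe the choice.

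**Figure D1:**
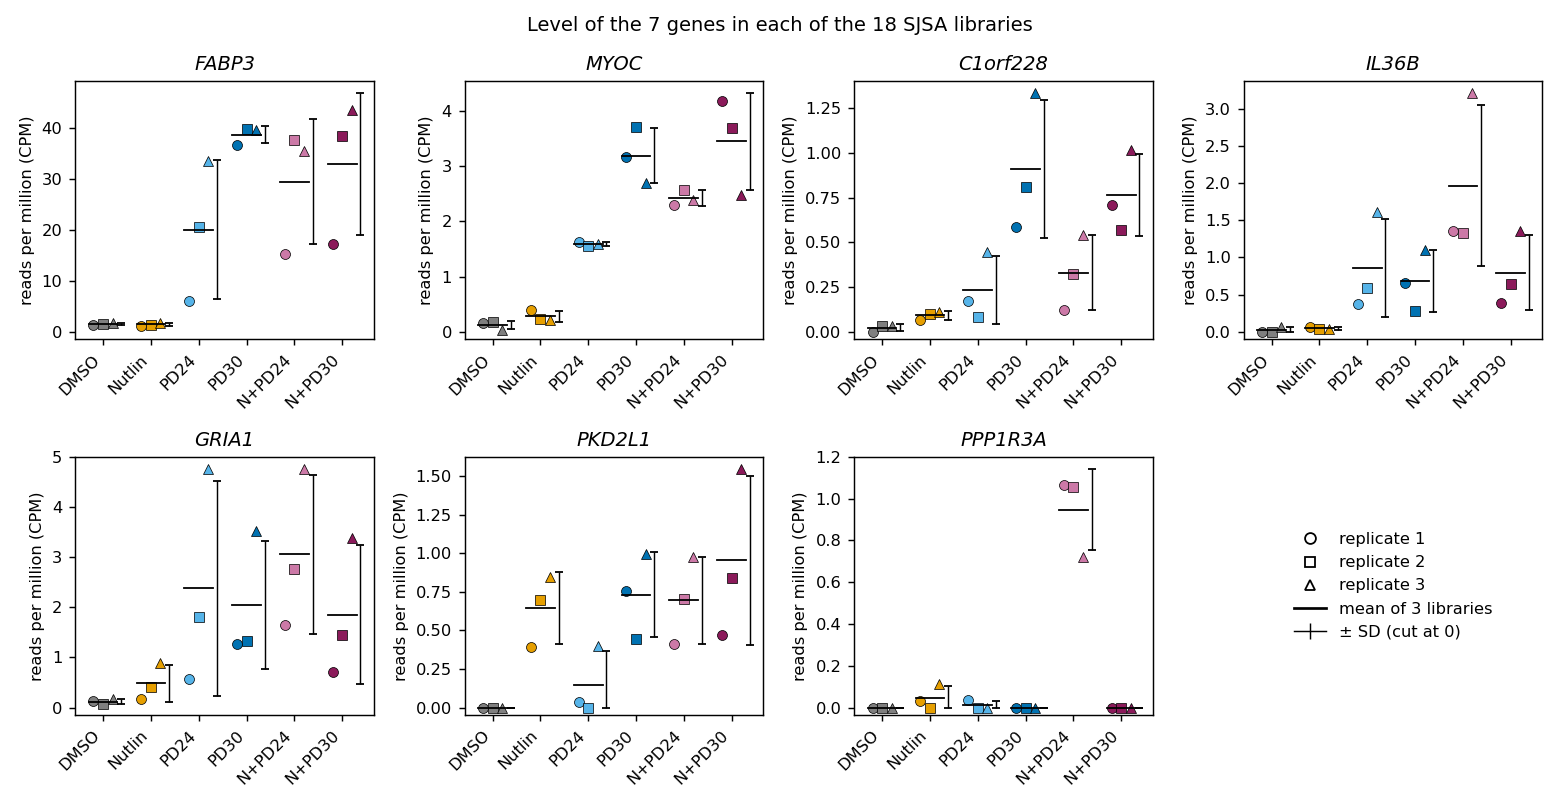
Level of each gene in each of the 18 libraries, in CPM (count scaled to a library total of 1000000, vertical axes from 0, each gene on its own scale) by condition (horizontal axes). Circles, squares and triangles are replicates 1, 2 and 3, horizontal bars the mean and vertical bars ± SD of 3 libraries. FABP3 stays at or below 1.77 CPM without Palbociclib and lies at 6.08 to 43.4 CPM with it, whereas PPP1R3A lies at 0.722 to 1.07 CPM in N+PD24 and at 0.111 CPM or less elsewhere.

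Per length of transcript, FABP3 was by far the most abundant of the 7. In PD30 it reached 35.3 CPM per kilobase, against 1.52 for MYOC, 0.572 for IL36B, 0.537 for C1orf228, 0.366 for GRIA1, 0.262 for PKD2L1 and 0 for PPP1R3A. In DMSO, FABP3 stood at 1.40 CPM per kilobase and the other 6 genes at 0.0567 or less. For 4 genes the DMSO group held no more than 3 reads over its 3 libraries. PPP1R3A and PKD2L1 had 0 reads there, IL36B 2 and C1orf228 2. Over all DMSO libraries a count of 0 allows up to 0.0323 CPM, and over all Nutlin libraries 0.0342 CPM, taking 3 reads as the limit. These limits, and the intervals of pooled reads given from here on, cover counting error only.

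**Figure D2:**
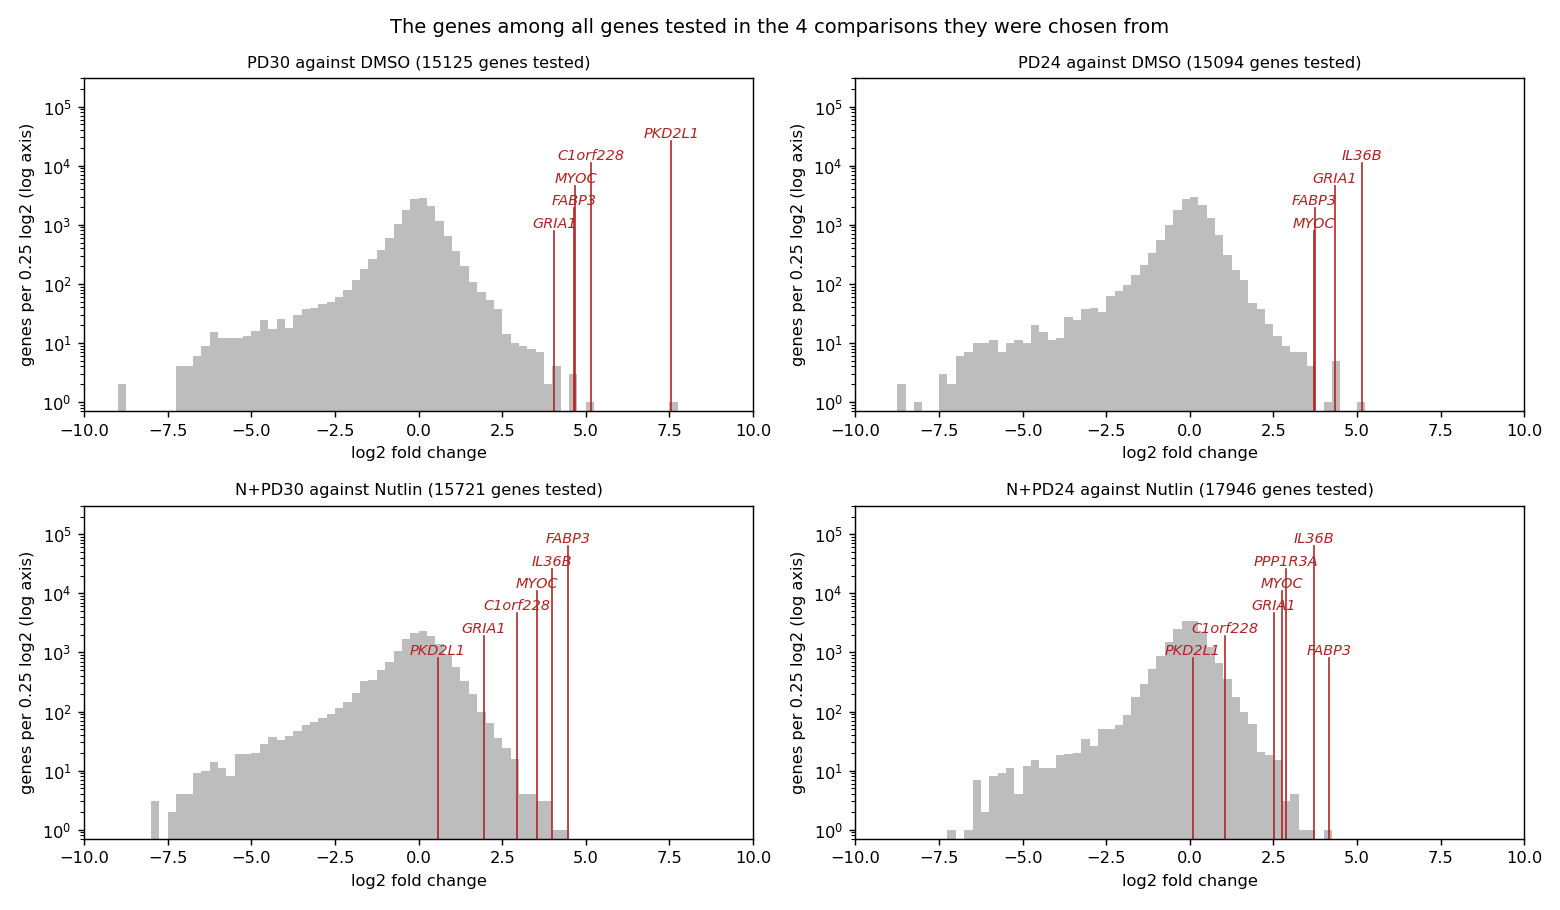
Fitted log2 fold changes (horizontal axes) of all genes tested in the 4 comparisons that served to choose the genes, as histograms with the number of genes per bin on a log axis. Red lines mark those of the 7 genes that passed the filter on low values. All lie to the right of 0, PKD2L1 in the bulk of the genes in both comparisons with Nutlin, and its place in PD30 against DMSO is no bound, since DMSO held 0 reads.

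FABP3 was the gene with the most reads. Its gene spans chr1:31838100-31849697 on the minus strand (GRCh37). The start of the transcript was looked at because FABP3 had the largest fitted rise of all genes tested in both comparisons with Nutlin. The RefSeq window from 250 bases before to 50 after the start (GRCh38.p14, chr1:31373027-31373326, minus strand) held none of the motifs searched, which are listed further down.
FABP3: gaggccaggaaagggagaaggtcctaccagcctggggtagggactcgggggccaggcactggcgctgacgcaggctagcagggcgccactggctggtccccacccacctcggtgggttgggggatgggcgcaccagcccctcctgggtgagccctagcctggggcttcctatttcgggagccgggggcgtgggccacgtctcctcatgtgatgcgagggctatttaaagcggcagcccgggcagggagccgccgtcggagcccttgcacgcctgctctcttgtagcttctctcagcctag
In DMSO, FABP3 was read at 1.39, 1.46 and 1.75 CPM in replicates 1 to 3. In PD30 it stood at 36.7, 39.7 and 39.6 CPM, the tightest of the Palbociclib groups, and in PD24 at 6.08, 20.6 and 33.4 CPM. The PD24 libraries thus ranged from far below PD30 to near it, and all of them lay above DMSO. Over the pooled reads, FABP3 was 25.4-fold higher in PD30 than in DMSO (95% counting interval 21.4 to 30.2) and 14.1-fold higher in PD24. Nutlin alone left FABP3 at 1.18, 1.43 and 1.77 CPM, a log2 difference of 0.05 ± 0.23 (SE) to DMSO that was not significant (edgeR, adjusted p = 0.863). With Nutlin present, the levels were 15.3, 37.6 and 35.5 CPM in N+PD24 and 17.2, 38.3 and 43.4 CPM in N+PD30. These were 21.3-fold and 24.7-fold the pooled level of Nutlin. By fitted rise, FABP3 ranked number 1 of 17946 genes (limma) and number 1 of 15721 (edgeR), in comparisons that had served to choose it. By pooled reads FABP3 was not first in N+PD24, where IL36B was 42.1-fold the level of Nutlin (16.1 to 156). Against DMSO, the fitted rise of FABP3 ranked number 4 of 15125 genes in PD30 and number 8 of 15094 in PD24. In order of the means, PD30 (38.7 ± 1.71 CPM, SD, n = 3) was followed by N+PD30 (33 ± 13.9), N+PD24 (29.4 ± 12.3), PD24 (20.0 ± 13.7), DMSO (1.53 ± 0.188) and Nutlin (1.46 ± 0.296). Neighbours in this order overlapped, except that PD24 and DMSO were separate. Replicate 1 was the lowest library of FABP3 in 4 of 4 Palbociclib groups. FABP3 has a processed pseudogene, FABP3P2, at chr13:42943395-42943793 (GRCh37) with no row of its own. Reads placed there are therefore not seen here, and how reads were divided between the pair was not tested.

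MYOC varied little between replicates in PD24, PD30 and N+PD24. Its gene spans chr1:171604557-171621828 on the minus strand (GRCh37) and overlaps MYOCOS on the other strand. Reads were counted in a reverse-strand setting, but the labels do not say whether the library kit keeps the strand. Whether reads of the pair were kept apart is therefore not known. MYOC was read at 0.151, 0.173 and 0.0323 CPM in DMSO, which is 5, 5 and 1 reads. In PD24 it stood at 1.63, 1.56 and 1.59 CPM and in PD30 at 3.17, 3.70 and 2.70 CPM. All PD30 libraries were above all PD24 libraries, and these were above all DMSO libraries. The pooled reads were 26.9-fold higher in PD30 than in DMSO (14.8 to 54.5) and 13.5-fold higher in PD24 (7.31 to 27.5). Nutlin alone gave 0.393, 0.233 and 0.221 CPM, all above DMSO, on 25 reads against 11 (2.40-fold, 1.14 to 5.41). MYOC stood at 2.30, 2.57 and 2.38 CPM in N+PD24 and at 4.17, 3.70 and 2.47 CPM in N+PD30, which overlapped. The order of the means was N+PD30 (3.45 ± 0.878), PD30 (3.19 ± 0.501), N+PD24 (2.42 ± 0.141), PD24 (1.59 ± 0.0350), Nutlin (0.282 ± 0.0961) and DMSO (0.119 ± 0.0759), where only N+PD30 and PD30 overlapped as neighbours.

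C1orf228 was also higher under continuous drug than after its removal. The gene spans chr1:45140364-45191263 on the plus strand (GRCh37) and overlaps the small nuclear RNA gene RNU5F-1 on the other strand. Its promoter window (GRCh38.p14, chr1:44674464-44674763, plus strand) is printed because it held the motif CCAAT, in capitals, 4 times counting both strands. CCAAT occurred in 34.6% of the 35116 RefSeq promoter windows.
C1orf228: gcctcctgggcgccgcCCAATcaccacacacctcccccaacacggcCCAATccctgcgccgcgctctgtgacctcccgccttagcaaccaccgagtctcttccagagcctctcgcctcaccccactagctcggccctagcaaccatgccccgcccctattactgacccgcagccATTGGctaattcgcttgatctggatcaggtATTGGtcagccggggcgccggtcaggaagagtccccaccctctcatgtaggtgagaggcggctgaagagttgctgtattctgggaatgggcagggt
The gene had 0, 1 and 1 reads in DMSO and 2, 3 and 3 reads in Nutlin. In PD24 it was read at 0.170, 0.0843 and 0.447 CPM (5, 2 and 18 reads), and in PD30 at 0.585, 0.806 and 1.33 CPM. Every PD30 library lay above every PD24 library. Pooled, C1orf228 was 43.0-fold higher in PD30 than in DMSO, on 93 against 2 reads, which leaves an interval of 11.6 to 361. For PD24 against DMSO the ratio was 12.4 (3.10 to 108). N+PD24 stood at 0.123, 0.325 and 0.542 CPM and N+PD30 at 0.708, 0.571 and 1.02 CPM, again without overlap. The group means ran from PD30 (0.909 ± 0.385) over N+PD30 (0.765 ± 0.228), N+PD24 (0.330 ± 0.209), PD24 (0.234 ± 0.190) and Nutlin (0.0920 ± 0.0235) to DMSO (0.0223 ± 0.0194). PD30 and N+PD30 overlapped, as did N+PD24 with PD24 and PD24 with Nutlin.

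IL36B spans chr2:113779666-113810444 on the minus strand (GRCh37), between its relatives IL36A and IL36RN. It had 0, 0 and 2 reads in DMSO and 2, 1 and 1 reads in Nutlin. PD24 gave 0.373, 0.590 and 1.62 CPM, and PD30 0.654, 0.278 and 1.11 CPM. These groups overlapped each other and lay above every DMSO library. Pooled, IL36B was 44.7-fold higher in PD24 than in DMSO (12 to 375) and 31.5-fold higher in PD30 (8.38 to 265), the wide intervals coming from 2 reads in DMSO. The highest levels were seen in N+PD24, with 1.35, 1.33 and 3.21 CPM, while N+PD30 stood at 0.394, 0.638 and 1.36 CPM. Replicate 3 held the highest level in 4 of 4 Palbociclib groups. The order of the means was N+PD24 (1.96 ± 1.08), PD24 (0.860 ± 0.664), N+PD30 (0.796 ± 0.50), PD30 (0.680 ± 0.415), Nutlin (0.0452 ± 0.0177) and DMSO (0.0216 ± 0.0373), and the libraries of the 4 Palbociclib groups overlapped between neighbours, as did those of Nutlin and DMSO. Paired by replicate number, IL36B was higher in N+PD24 than in PD24 in 3 of 3 pairs, and the blocked test of this difference is given with the Nutlin comparisons. The flanking cytokine genes were close to silent. IL36A reached a mean of 0.0331 CPM at most, and IL36RN, the receptor antagonist, 0.267 CPM in N+PD24.

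GRIA1 spans chr5:152869175-153193429 on the plus strand (GRCh37) and overlaps RN7SL177P on the same strand. It was read at 0.121, 0.0694 and 0.162 CPM in DMSO, and at 0.577, 1.81 and 4.75 CPM in PD24. PD30 gave 1.27, 1.33 and 3.52 CPM. All 6 libraries lay above DMSO, and the scatter among the PD24 libraries was wider than the difference between the schedules. The pooled reads were 22.7-fold higher in PD24 (12.5 to 46.0) and 17.6-fold higher in PD30 (9.63 to 35.8) than in DMSO. Nutlin alone gave 0.164, 0.400 and 0.884 CPM, all above DMSO, on 41 reads against 11 (3.94-fold, 1.99 to 8.51). Nutlin replicate 1 and DMSO replicate 3 held 5 reads each, so library depth set their order. With both drugs the levels were 1.64, 2.76 and 4.77 CPM in N+PD24 and 0.708, 1.44 and 3.39 CPM in N+PD30, whose lowest library overlapped Nutlin. In all 4 Palbociclib groups, replicate 3 was the highest and replicate 1 the lowest library. The means fell in the order N+PD24 (3.06 ± 1.58), PD24 (2.38 ± 2.14), PD30 (2.04 ± 1.28), N+PD30 (1.85 ± 1.39), Nutlin (0.483 ± 0.367) and DMSO (0.117 ± 0.0463), with overlap between all neighbours but the last pair. The neuron list that was checked beside it (RBFOX3, SYT1, SNAP25, STMN2 and TUBB3) summed to 159 to 173 CPM in DMSO, 113 to 131 in PD24 and 158 to 199 in PD30. In Nutlin the sum was 194 to 208 CPM, in N+PD24 127 to 147 and in N+PD30 151 to 177. RBFOX3 did not exceed 1.63 CPM in any library. The part of this list in the result was not tested.

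PKD2L1 responded to either drug. The gene spans chr10:102047906-102090021 on the minus strand (GRCh37). Its promoter window (GRCh38.p14, chr10:100330179-100330478, minus strand) is shown because it held 1 copy of the CHR motif (TTTGAA or TTCGAA) of cell cycle promoters, on the reverse strand and in capitals. That motif occurred in 16.4% of all windows.
PKD2L1: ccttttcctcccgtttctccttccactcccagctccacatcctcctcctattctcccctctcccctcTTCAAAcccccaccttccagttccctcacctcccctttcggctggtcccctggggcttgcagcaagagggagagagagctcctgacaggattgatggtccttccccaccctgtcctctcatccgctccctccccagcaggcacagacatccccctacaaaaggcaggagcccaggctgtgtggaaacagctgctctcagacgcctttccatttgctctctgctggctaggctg
DMSO had 0 reads in all 3 libraries. Nutlin had 12, 21 and 23 reads, or 0.393, 0.699 and 0.848 CPM. The pooled level was thus at least 19.8-fold higher with Nutlin than with DMSO, taking 3 reads over the DMSO group as its limit. In PD30 there were 22, 16 and 35 reads (0.758, 0.445 and 0.994 CPM), at least 22.5-fold above DMSO. PD24 had 1, 0 and 16 reads, so 16 of its 17 reads came from replicate 3, and the bound of at least 5.63-fold rests on that library. Replicates 1 and 2 of PD24 did not differ detectably from DMSO at this depth. With both drugs, PKD2L1 had 10, 26 and 27 reads in N+PD24 (0.410, 0.704 and 0.975 CPM) and 6, 25 and 32 in N+PD30 (0.472, 0.840 and 1.55 CPM). Against Nutlin these were ratios of 1.11 (0.761 to 1.62) and 1.56 (1.07 to 2.28), with overlapping libraries. By fitted rise, PKD2L1 stood at rank 3219 of 15721 and 7001 of 17946 genes in the comparisons with Nutlin, whereas its fitted rise against DMSO, with 0 reads there, is not ranked. Whether the effect of Palbociclib on PKD2L1 differed with and without Nutlin was not tested. In order of the means, N+PD30 (0.954 ± 0.548), PD30 (0.732 ± 0.275), N+PD24 (0.696 ± 0.283) and Nutlin (0.647 ± 0.232) overlapped, PD24 (0.144 ± 0.220) reached the Nutlin range with 1 library, and DMSO stood at 0, as did 1 PD24 library.

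PPP1R3A was raised in 1 of the 4 comparisons that chose the genes, N+PD24 against Nutlin, and had at most 1 read in the Palbociclib groups of the others. It spans chr7:113516832-113715975 on the minus strand (GRCh37). Its promoter window (GRCh38.p14, chr7:113918960-113919259, minus strand) is shown because it was the 1 window of those searched that held the muscle motif MEF2. This motif lies at −114 to −105 from the start and covers a TATAAA on the reverse strand, and CCAAT occurs on either side. All are in capitals. MEF2 was found in 2.99% of all windows and TATAAA in 11.5%.
PPP1R3A: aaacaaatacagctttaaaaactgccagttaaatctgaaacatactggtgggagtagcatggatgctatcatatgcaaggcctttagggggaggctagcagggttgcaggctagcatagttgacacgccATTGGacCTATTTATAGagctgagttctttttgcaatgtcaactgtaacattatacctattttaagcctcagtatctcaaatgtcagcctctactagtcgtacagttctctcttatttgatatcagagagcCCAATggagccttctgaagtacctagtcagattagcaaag
The gene had 26, 39 and 20 reads in N+PD24, which is 1.07, 1.06 and 0.722 CPM. In DMSO, PD30 and N+PD30 it had 0 reads in each of 9 libraries, in PD24 1, 0 and 0, and in Nutlin 1, 0 and 3. Continuous Palbociclib, with or without Nutlin, thus gave no read at all. The pooled level of N+PD24 was at least 20.1-fold that of N+PD30, 20.9-fold that of Nutlin (7.88 to 78.6) and, on 85 reads against 1, 89.2-fold that of PD24 (15.6 to 3563). Among the 23368 rows, PPP1R3A was the 1 gene with 0.5 CPM or more in each N+PD24 library and 3 reads or fewer in each other library, while 498 genes had their lowest N+PD24 library above all other libraries. Both criteria were set after the values of PPP1R3A were known. N+PD24 is also the condition whose values were deposited in another form than the rest, so condition and form of deposit cannot be told apart. The 51 muscle genes that were checked beside PPP1R3A and FABP3 summed to 91.2 to 101 CPM in N+PD24, to 43.1 to 44.3 in DMSO, 69.3 to 91.7 in Nutlin and 63.9 to 74.0 in PD24. In PD30 the sum was 65.3 to 67.6 CPM and in N+PD30 76.0 to 78.1. Of these genes, 9 had no read in DMSO, 6 in PD24, 5 in N+PD30, 2 in PD30, 1 in Nutlin and 1 in N+PD24, and their part in the result was not tested.

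The other windows added little. GRIA1 has a pair of windows in RefSeq, of which the second held 1 CCAAT and the first no motif. IL36B and MYOC were not searched. The motifs were looked for on both strands and may overlap where their letters allow. Beside the 4 motifs named with the windows they were E2F (TTTCCCGC, TTTGGCGC or TTTCGCGC), found in 2.74% of all windows. The E-box CACGTG occurred in 7.26% and the AP-1 motif TGACTCA in 4.95%. The direct-repeat motif of PPAR occurred in 0.02%. No window of the 5 genes held E2F, E-box, AP-1 or PPAR letters, which says nothing on binding of these factors.

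Comparing the schedules without Nutlin sets 30 h of Palbociclib against 24 h followed by removal. Length of exposure and removal differ together, and no cells were harvested at 24 h. A loss after removal and a shorter rise therefore cannot be told apart. MYOC was lower in PD24 than in PD30, whereas IL36B and GRIA1 did not differ significantly. The libraries of these and the following Palbociclib groups had also served to choose the genes, which limits all p-values for them. Of the 6 genes that could be tested in PD30 against PD24, MYOC and C1orf228 were called (edgeR, adjusted p under 0.05). Of all genes tested, 25.2% were called in either direction. C1orf228 and PKD2L1 passed the filter on low counts only through PD30, the group in which they were higher. Their values and calls in this comparison, also in the other fits, therefore support nothing further. IL36B passed it only through PD24, where its mean was higher. MYOC was higher in PD30 by 0.97 ± 0.20 (log2, SE; adjusted p = 0.00918, edgeR) in 3 of 3 libraries, which held on leaving out any library (edgeR, adjusted p 0.0134 to 0.0396). C1orf228 was higher by 1.79 ± 0.50 (edgeR, adjusted p = 0.0297, or 0.0135 without the filter), but the call was lost without PD24 replicate 1 (adjusted p = 0.102), PD24 replicate 2 (0.0651) or PD30 replicate 3 (0.108). The values for PKD2L1 (2.02 ± 0.72, edgeR, adjusted p = 0.0667) and FABP3 (0.91 ± 0.44, adjusted p = 0.158) missed the threshold, although none of their PD30 libraries overlapped PD24. PKD2L1 passed it with DESeq2 (adjusted p = 0.0399), with edgeR without the filter (0.0334) and with edgeR over all 5 count conditions (0.0426). In all, 4 of the 7 genes were higher in every PD30 than in every PD24 library, as were 22.9% of the genes tested. In these 2 conditions, libraries with the same replicate number deviated together, and with the replicate number as a block 4 of the 6 genes were called, against 40.3% of all genes. The blocked fit called FABP3 (1.15, adjusted p = 0.0281) and PKD2L1 (2.22, adjusted p = 0.0137) in addition. Both genes were also called by edgeR on leaving out PD24 replicate 3 (adjusted p = 0.0244 and 0.00371), the library in which they were highest. IL36B (−0.44 ± 0.57, edgeR, adjusted p = 0.615) and GRIA1 (−0.28 ± 0.63, adjusted p = 0.774) were not called in either fit, and both turned positive, uncalled, without PD24 replicate 3 (0.46 and 0.76). PPP1R3A had too few reads to be tested.

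With Nutlin in the last 6 h, the schedules N+PD30 and N+PD24 were compared on the log2(CPM + 0.1) scale, which understates folds of low genes. PPP1R3A differed by 85 reads against 0. It passed the filter only through N+PD24, a group that served to choose it, so its difference is a description without a test. Of the other 6 genes, 0 were called (limma, adjusted p under 0.05), when 30.9% of all genes were, and 2 had an unadjusted p under 0.05. C1orf228 was higher in N+PD30 (1.11 ± 0.41, limma, adjusted p = 0.0672) and IL36B lower (−1.23 ± 0.45, adjusted p = 0.0633), both short of the threshold. C1orf228 was higher in every N+PD30 library than in every N+PD24 library, as were 26.4% of the genes tested, and PPP1R3A was lower in every library, as were 20.0%. IL36B passed it with edgeR on recovered reads (adjusted p = 0.0460) and C1orf228 with quantile normalization (limma, adjusted p = 0.0153). Leaving out N+PD24 replicate 3 brought C1orf228 past it (limma, adjusted p = 0.0323), and leaving out N+PD30 replicate 3 did so for IL36B (0.0165), MYOC (0.0473) and GRIA1 (0.0412). MYOC (0.46 ± 0.24, limma, adjusted p = 0.170), GRIA1 (−0.82 ± 0.52, 0.255), PKD2L1 (0.34 ± 0.42, 0.576) and FABP3 (0.16 ± 0.40, 0.786) were not called with all libraries.

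**Figure D3:**
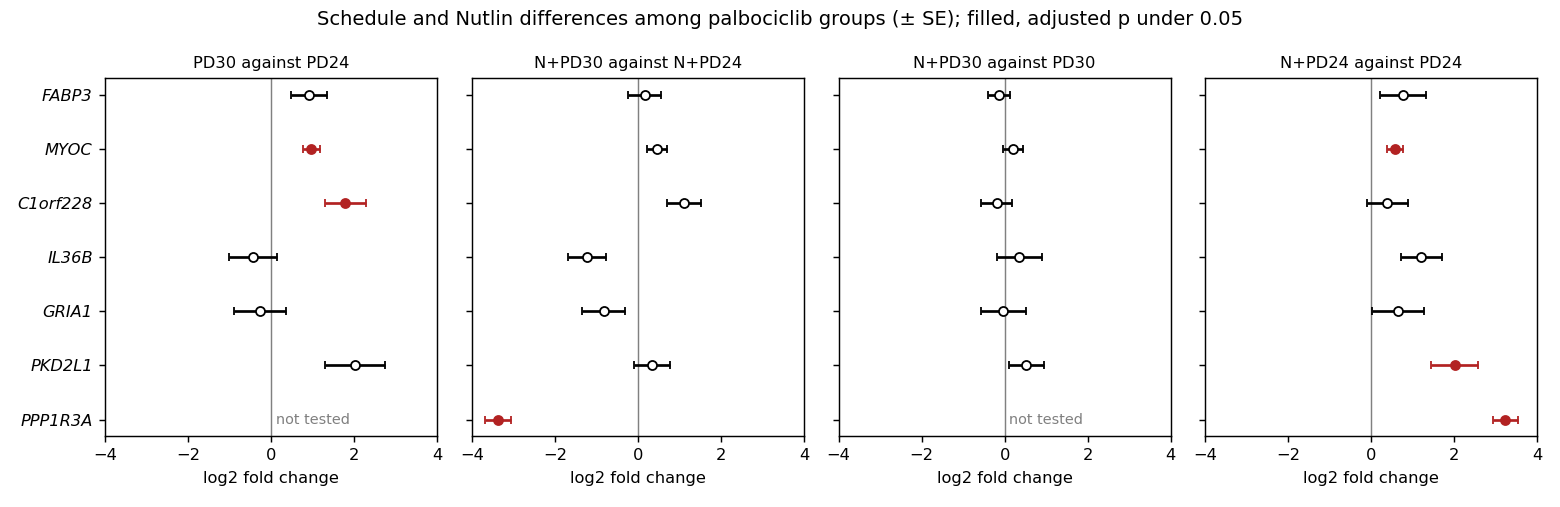
Log2 fold changes ± SE (horizontal axes) of the 7 genes (rows) between schedules and between Nutlin and no Nutlin among the 4 Palbociclib conditions, 3 libraries each. Filled red circles passed an adjusted p of 0.05, and the comparisons with N+PD24 are on the log2(CPM + 0.1) scale. MYOC (0.97) and C1orf228 (1.79) lie right of 0 in PD30 against PD24, and PPP1R3A lies at −3.37 and 3.23 in the comparisons with N+PD24, which it entered through N+PD24 alone. C1orf228 entered PD30 against PD24 through PD30 alone, and PKD2L1 entered N+PD24 against PD24 through N+PD24 alone.

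The comparisons of Nutlin ask whether p53 activation alone, or on top of Palbociclib, moves the same genes. Without Palbociclib, 2 of the 7 genes had enough reads to be fitted, when 54.6% of all genes tested were called. FABP3 was not called, as given above. PKD2L1, with 56 reads against 0, passed the filter only through Nutlin, so its rise is given as the bound above and without a test. C1orf228, MYOC, GRIA1 and PKD2L1 were higher in every Nutlin than in every DMSO library, compared with 23.3% of the genes tested. The first 3 of these fell under the filter on low counts, whereas that share is over genes that passed it. For GRIA1 the separation rested on library depth, with 5 reads in Nutlin replicate 1 and 5 in DMSO replicate 3. Under continuous Palbociclib, N+PD30 against PD30, 0 of the 6 genes tested were called (edgeR; 14.5% of all genes), and none of the 7 was separate between the groups, against 14.2% of genes higher and 26.0% lower in every library. At an unadjusted p under 0.05 the count was also 0 of the 6, and DESeq2 called 0. The log2 differences of these 6 lay between −0.19 ± 0.38 (C1orf228) and 0.52 ± 0.42 (PKD2L1). IL36B passed the filter there only through N+PD30. With the replicate block, which the pairing of these libraries allows, 29.0% of all genes were called and still 0 of the 6.

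After removal of Palbociclib, N+PD24 against PD24, PPP1R3A had 85 reads with Nutlin and 1 without, which is not tested here for the reason given above. Of the other 6 genes, PKD2L1 and MYOC were called (limma, adjusted p under 0.05), as were 37.2% of all genes. PKD2L1 and C1orf228 passed the filter only through N+PD24, the group in which they were higher. Their values and calls in this comparison, also with the block, therefore support nothing further. PKD2L1 was higher by 2.02 ± 0.57 (limma, adjusted p = 0.0195, or 0.0204 without the filter), a call that was lost without PD24 replicate 1 (0.0624), PD24 replicate 2 (0.0696), N+PD24 replicate 2 (0.0592) or N+PD24 replicate 3 (0.0627). MYOC was higher by 0.57 ± 0.19 (limma, adjusted p = 0.0432), and this call was lost on leaving out any 1 of the 6 libraries (0.0649 to 0.151). PPP1R3A, PKD2L1 and MYOC were higher in every N+PD24 than in every PD24 library, as were 19.2% of the genes tested. The replicate numbers paired these libraries as well, and the blocked fit called 4 of these 6 genes (48.8% of all genes), with IL36B (1.20, limma, adjusted p = 0.00457) and FABP3 (0.76, adjusted p = 0.0166) in addition. Without the block, IL36B stood at an adjusted p of 0.0808 and FABP3 at 0.321 (limma), and IL36B passed the threshold without PD24 replicate 3 (limma, adjusted p = 0.0151). GRIA1 (0.65 ± 0.63, limma, adjusted p = 0.457) and C1orf228 (0.39 ± 0.49, 0.578) were not called.

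Whether the Nutlin effect differed between the schedules was tested by the interaction over the 12 Palbociclib libraries. PPP1R3A entered this fit through N+PD24 alone and is left out. Of the other 6 genes, 0 were called (limma, adjusted p under 0.05), against 13.7% of all genes tested, and edgeR on recovered reads called 0 as well. The count at an unadjusted p under 0.05 was 1, PKD2L1. For PKD2L1, the Nutlin effect was smaller under continuous drug by 1.75 (limma, adjusted p = 0.152). This passed the threshold with the replicate block (limma, adjusted p = 0.0280) and without PD24 replicate 3 (0.0233), so 1 of these 6 genes was then called, against 23.3% of all genes with the block. The block spans N+PD30 and N+PD24, whose replicate numbers did not pair by the rule given below (r = 0.05, 0.12 and 0.35). The blocked p-value thus rests on a pairing that these libraries did not show.

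By their pattern over all 18 libraries, the genes fell next to different others. Likeness was measured as the root mean square difference of centred log2(CPM + 0.1) values over the 18 libraries, among 15802 genes. C1orf228 was closest to CERS4 (0.46), SCD (0.47) and LSS (0.47), a ceramide synthase, the stearoyl-CoA desaturase and a sterol synthesis enzyme. SCD rose from a mean of 316 CPM in DMSO to 572 in PD24 and 1619 in PD30 (edgeR, adjusted p = 0.0443 and 5.08e-08). IL36B was closest to SPINK1 (0.37), a secreted protease inhibitor, followed by the vesicular glutamate transporter SLC17A7 (0.62) and GRIA1 (0.62). GRIA1 in turn was closest to CPNE7 (0.57), SPRR2D (0.60) and SPINK1 (0.60). FABP3 had no near match, with PRUNE2 (0.79), ALDOC (0.81) and HRK (0.82) as the closest. MYOC was closest to RHCG (0.61), HSD17B6 (0.61) and LOC283050 (0.65), and PKD2L1 to DNHD1 (0.58), FAM154B (0.60) and DBH (0.60). PPP1R3A was closest to DGAT2L6 (0.53), ARSI (0.55) and PRLR (0.55), the prolactin receptor, which stood at 4.93 CPM in N+PD24 and at 1.01 CPM or less as the mean of any other condition.

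**Figure D4:**
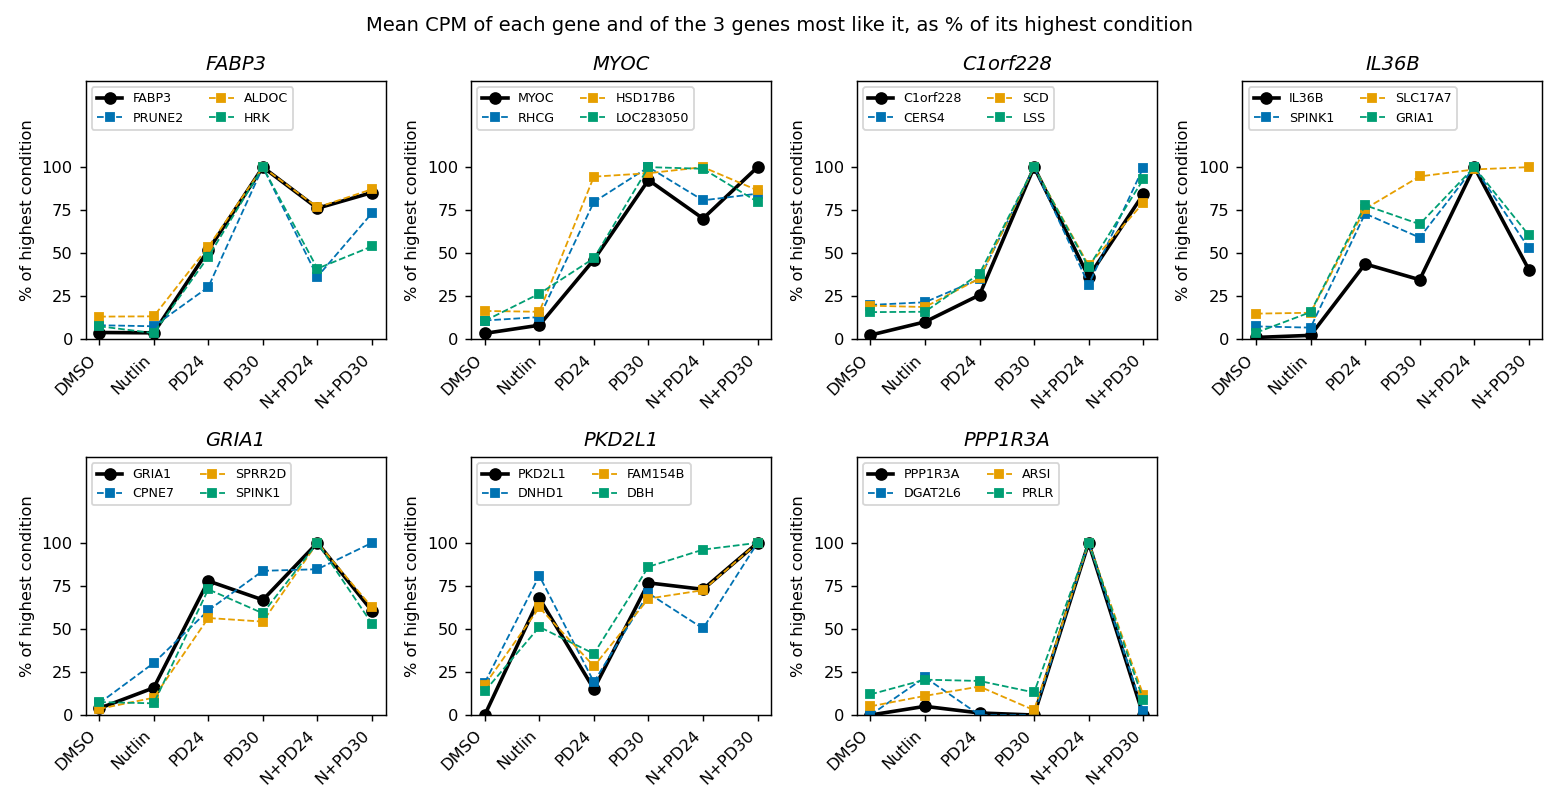
Mean CPM of each of the 7 genes (black) and of the 3 genes with the most similar pattern (colours) by condition, as percent of the highest condition of each gene. C1orf228, CERS4, SCD and LSS share the higher PD30 and N+PD30 levels, and PPP1R3A, DGAT2L6, ARSI and PRLR share the peak in N+PD24.

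The flanking genes did not move as a block with the 7 genes. Of the 14 nearest annotated neighbours with a row, 10 could be tested in PD30 against DMSO, where 5 were higher and 2 lower (edgeR), and 48.3% of all genes were called there. ZCCHC17, 299 bases from FABP3, was lower in PD30 (−0.37 ± 0.09, edgeR, adjusted p = 0.00600). TMEM53, 210 bases from C1orf228 on the other strand, was higher (1.31 ± 0.19, edgeR, adjusted p = 0.000372). SCD lies 16968 bases from PKD2L1 and was higher by 2.34 ± 0.09 (edgeR, adjusted p = 5.08e-08). FOXP2, next to PPP1R3A, was higher in PD30 than in DMSO (0.84 ± 0.23, edgeR, adjusted p = 0.0126) and lower in PD24 (−1.94 ± 0.24, adjusted p = 0.000381). The neighbours of MYOC, PRRC2C and VAMP4, were not called in PD30 against DMSO (edgeR, adjusted p = 0.703 and 0.945), while VAMP4 was higher in N+PD30 than in Nutlin (0.59 ± 0.21, edgeR, adjusted p = 0.0359).

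The families of the 7 genes moved in both directions. Of all genes tested in PD30 against DMSO, 22.9% were higher and 25.4% lower. In this comparison, 12 of 33 tested genes of fatty acid binding, uptake and oxidation were higher and 6 lower (edgeR), with a median log2 fold change of 0.18 beside 0.00 over all genes. ACSL4, which activates long-chain fatty acids, was higher (1.10 ± 0.08, edgeR, adjusted p = 6.47e-06), whereas PDK4, a kinase that inhibits pyruvate dehydrogenase, was lower (−1.79 ± 0.22, edgeR, adjusted p = 0.000161), as was HADH, an enzyme of fatty acid oxidation (−1.30 ± 0.09). Of 25 glycogen genes, 6 were higher and 3 lower (median 0.21). PPP1R3B, the glycogen-targeting subunit of liver, was higher in all 4 Palbociclib comparisons and rose from 55.8 to 178 CPM with PD30 (1.66 ± 0.12, edgeR, adjusted p = 4.37e-06). Among 13 genes of the interleukin-1 family and its receptors, 1 was higher, the kinase IRAK2, and 4 lower, including IL1B (−1.79 ± 0.35, edgeR, adjusted p = 0.00225) and the receptor IL1R1 (−1.60 ± 0.20). IL1B was higher in PD24 than in DMSO, by 1.40 ± 0.44 (edgeR, adjusted p = 0.0315). None of 9 genes with an olfactomedin domain was higher, also at an unadjusted p under 0.05, and 3 were lower, OLFM1 most (−1.39 ± 0.14, edgeR, adjusted p = 3.80e-05). Of 9 polycystins, 4 were higher and 0 lower, the same counts as at an unadjusted p under 0.05, and PKD1L2 led (2.68 ± 0.21, edgeR, adjusted p = 8.44e-06). Of 16 genes of glutamate receptors and their partners, 6 were higher and 1, CACNG4, lower, and the rises of GRIN2C (1.03 ± 0.27) and GRIK2 (0.63 ± 0.13) were modest. Of 16 muscle genes, 7 were higher and 1 lower. Here the slow troponin TNNC1 was higher (2.30 ± 0.31). MYOZ2 had means of 0.118 CPM in DMSO and 2.85 in PD30, and nebulin, NEB, 0.922 and 0.245 CPM. Each of these passed the filter on low counts only through the group in which it was higher. Their fitted changes (4.53 ± 0.41 and −1.89 ± 0.30) are therefore a description without a test, although both genes enter the counts.

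The balance of these lists was not the same in the other Palbociclib comparisons, in which 38.3% (PD24 against DMSO), 49.0% (N+PD30 against Nutlin) and 30.6% (N+PD24 against Nutlin) of all genes tested were called. Of the glutamate receptor list, 1 gene was higher and 3 lower in PD24 against DMSO, 4 higher and 8 lower in N+PD30 against Nutlin, and 2 higher and 6 lower in N+PD24 against Nutlin. GRIN2C was lower in both comparisons with Nutlin (−0.92 ± 0.30, edgeR, adjusted p = 0.0250, and −1.21 ± 0.27, limma, adjusted p = 0.00816). Of the muscle list, 6 genes were higher and 1 lower in PD24 against DMSO, 5 higher and 11 lower in N+PD30 against Nutlin (median −0.49) and 7 higher and 6 lower in N+PD24 against Nutlin. With Nutlin against DMSO, 16 of 22 muscle genes tested were higher and 0 lower (median 1.66), also at an unadjusted p under 0.05. Of all 15766 genes tested there, 4198 were higher and 4416 lower. Of the 51 muscle genes, 3 reached 1 CPM in every DMSO library and 11 in every Nutlin library. A gene near silent in DMSO could be tested only if it was read more with Nutlin, so this count is a description. For the interleukin-1 list the counts were 2 higher and 1 lower in PD24 against DMSO, 5 and 7 in N+PD30 against Nutlin, and 3 and 2 in N+PD24 against Nutlin. The polycystins gave 3 higher and 0 lower, 4 and 3, and 2 and 1 in the same order, and the olfactomedin genes 0 higher and 4 lower, 1 and 5, and 0 and 6. At an unadjusted p under 0.05, 1 polycystin was lower in PD24 against DMSO, and the counts of 0 higher olfactomedin genes stayed at 0.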

How the data were processed

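The 18 libraries were prepared from total RNA and sequenced as single reads. According to the methods of the study, alignment to hg19 used TopHat with Bowtie2, and exonic reads were summed per gene symbol by HTSeq 0.6.0 in its reverse-strand setting. The authors deposited raw counts for 5 conditions, as whole numbers under a name that speaks of variance-stabilized values. For N+PD24 they deposited a normalized signal, the counts divided by 1 size factor per library, and multiplied back 100% of the values were whole within 0.02. The deposited comparison of Nutlin with DMSO (base means, fold changes and p-values) and the tables of normalized base means were not used.

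Values are given as CPM of the total count of each library, and per kilobase of the GENCODE canonical transcript (GRCh37). Groups deposited as counts were compared by the edgeR quasi-likelihood test (edgeR 4.0.16, R 4.3.3, TMM, filterByExpr). Comparisons with N+PD24 and the interaction used limma 3.58.1 with an intensity trend on log2(CPM + 0.1), for genes at 0.1 CPM or more in at least 3 libraries. Of the 7 genes, those that passed a filter only through the group in which they were higher are named as such, as are MYOZ2 and NEB. The counts over lists of other genes include such genes. Genes were called at a Benjamini-Hochberg adjusted p under 0.05 over all genes tested. Scripts were tested on simulated data. Pooled reads were compared with exact conditional binomial 95% intervals (scipy 1.17.1), against 3 reads over the group where it held 0. The 7 genes, the lists of other genes and the tests were chosen with earlier results of these data known. From each list, up to 2 rises and 2 falls with the largest change in PD30 against DMSO were named. In addition, the nearest gene on each side of the 7 genes and the 3 genes most like each were named, the latter among genes at 0.5 CPM or more in 3 libraries.

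Replicate numbers were taken as pairing where the deviations of all 3 same-numbered pairs correlated over 0.1, which held for PD30 with PD24 (r = 0.31, 0.55 and 0.29), N+PD30 with PD30 (0.20, 0.32 and 0.65) and N+PD24 with PD24 (0.42, 0.48 and 0.20), as well as for PD24 with DMSO and N+PD24 with Nutlin. The pairing comes from these correlations and not from the labels. Alternatives were DESeq2 1.42.0, scaling without TMM, no filter, all 5 count conditions in 1 fit, edgeR on recovered reads, other pseudocounts, quantile normalization, the replicate block, an added limit on the fold change, and leaving out each library. Promoter windows came from RefSeq on GRCh38.p14, which held 5 of the 7 genes, C1orf228 as ARMH1.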

Additional observations from a re-analysis of the deposited data

Results flagged for a closer look

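PPP1R3A met the criterion for a difference in the Nutlin response between the Palbociclib schedules, with an interaction of −3.23 on the log2(CPM + 0.1) scale over 12 libraries (limma). The value describes 85 reads in N+PD24 against 1 in PD24, 0 in PD30 and 0 in N+PD30. The gene passed the filter on low values only through N+PD24, which also served to choose it, so the fit is no test of the difference. N+PD24 was deposited in another form than the other conditions, and condition and form of deposit cannot be told apart.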

How the results depend on the processing

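Of 447 alternative values for the 7 genes in the tested comparisons, 390 kept their direction and side of the threshold, 21 passed it in addition, 16 no longer passed it and 20 changed sign, all of the last without a call. Counts of the 7 genes that follow include PPP1R3A in the fits with N+PD24, and PKD2L1 in Nutlin against DMSO, which entered through 1 group alone and support nothing. The same holds for C1orf228 and PKD2L1 in PD30 against PD24, and for PKD2L1 in N+PD24 against PD24.

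Libraries with the same replicate number were fitted as pairs with a replicate block. It raised the genes called in PD30 against PD24 from 3816 to 6107 (of the 7 genes from 2 to 4), in N+PD30 against PD30 from 2183 to 4375, in N+PD24 against Nutlin from 5491 to 8663 and for the interaction from 2455 to 4191 (from 1 to 2). In N+PD24 against PD24, 5 of the 7 genes instead of 3 were called. In N+PD30 against N+PD24, where the numbers did not pair the libraries (r = 0.05, 0.12 and 0.35), the block called 4 instead of 1. Both of these groups also enter the blocked interaction.

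An added limit of 1 on the absolute log2 fold change left 1137 genes in PD30 against PD24 (1 of the 7), 2521 of 5425 in N+PD30 against N+PD24, 3277 of 8614 in Nutlin against DMSO, 555 in N+PD30 against PD30, 3142 of 6518 in N+PD24 against PD24 and 1575 for the interaction. In the comparisons that chose the genes it left 2305 of 7307 (PD30 against DMSO), 1898 of 5781 (PD24 against DMSO), 3510 of 7711 (N+PD30 against Nutlin) and 2070. In Nutlin against DMSO, DESeq2, no filter on low counts and the fit of all 5 count conditions each called 2 of the 7 genes. In N+PD30 against N+PD24, edgeR on recovered reads and quantile normalization called 2. For the interaction, edgeR on recovered reads called 0. In N+PD24 against PD24, MYOC was not called with quantile normalization (limma, adjusted p = 0.0720) or without the filter on low values (0.0727). The causes were not tested.

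Leaving out 1 library gave 2182 to 4108 called genes in PD30 against PD24 (1 to 4 of the 7), 3276 to 5290 in N+PD30 against N+PD24 (1 to 4), 583 to 3350 in N+PD30 against PD30, 1344 to 2464 for the interaction (1 to 2) and 1 to 3 of the 7 in N+PD24 against PD24.

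Signs changed for uncalled values. FABP3 gave −0.0619 with quantile normalization in N+PD30 against N+PD24 and −0.0730 without TMM in Nutlin against DMSO, and C1orf228 −0.22 with quantile normalization in N+PD24 against PD24. On leaving out a library, PD30 against PD24 ranged from −1.004 to 0.46 for IL36B and −0.92 to 0.76 for GRIA1. N+PD30 against N+PD24 ranged from −0.26 to 0.58 for FABP3 and −0.0531 to 0.71 for PKD2L1, and Nutlin against DMSO from −0.0821 to 0.17 for FABP3. N+PD30 against PD30 ranged from −0.34 to 0.17 for FABP3, −0.18 to 0.95 for IL36B, −0.44 to 0.21 for C1orf228 and −0.70 to 0.64 for GRIA1. N+PD24 against PD24 ranged from −0.0738 to 1.35 for GRIA1.

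Depth limits the low groups most: 4 of the 7 genes had 3 reads or fewer over DMSO, so their folds are bounds or carry wide intervals. In N+PD30 replicate 1, the shallowest library, 3 reads are worth 0.236 CPM.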
